A study of Homo sapiens with 12 samples.

Results

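The TRIM family of ubiquitin ligases was examined in 2 established human lung cancer cell lines that over-express the splicing factor SRSF2. Members were the rows of the count table whose symbol begins with TRIM and a digit. Antisense genes and pseudogenes were left out, which removed TRIM7-AS2, the divergent transcript TRIM8-DT and TRIM80P. The rule gave 45 genes of 16599 in the table, of which 44 are single genes and 1, TRIM39-RPP21, is a read-through into the next gene. All 45 passed the filter on low counts. Polyadenylated RNA was sequenced from A549 cells over-expressing SRSF2, untreated A549 cells, H1650 cells over-expressing SRSF2 and untreated H1650 cells, with 3 libraries in each of these 4 groups. Both lines derive from lung adenocarcinoma, and no other allele or agent is given in the labels. The control libraries are labelled untreated, their titles carry the letters NC, and whether they received an empty construct is not stated. How SRSF2 was over-expressed, in how many clones, and whether the 3 libraries of a group came from separate cultures are not stated either. The p-values therefore reflect library-to-library spread that may be technical. SRSF2 itself is among the genes not analysed here.

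TRIM proteins share a tripartite motif, a RING finger that recruits a ubiquitin-conjugating enzyme, 1 or more B-boxes and a coiled coil through which the proteins pair. The domain that follows the coiled coil differs between classes and commonly selects the substrate, and in the largest class it is a PRY-SPRY domain. Many TRIM genes are induced by interferon, and their products modify or anchor proteins of innate immune signalling such as the RNA sensors RIG-I and MDA5, while others act on chromatin, microtubules or the neuronal cytoskeleton.

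Total counts per library ran from 23876899 to 32079027, of which TRIM genes took 0.242% to 0.26%. Levels are given in CPM, counts relative to library size after TMM scaling, which adjusts library sizes for composition. The spread between replicates was largest in SRSF2 H1650 libraries, with a common biological coefficient of variation of 0.0559 against 0.0337 in untreated H1650 libraries, and it was 0.0342 in SRSF2 A549 libraries against 0.0298 in untreated A549 libraries. All 5 epithelial markers listed (KRT8, KRT18, KRT19, EPCAM, CDH1) had rows. Their summed level was 6223 to 6270 CPM in SRSF2 A549 against 6809 to 7291 CPM in untreated A549 libraries, and 7820 to 8213 CPM in SRSF2 H1650 against 8184 to 8406 CPM in untreated H1650 libraries. Of these 5, 1 was called higher and 4 lower in A549, and 3 higher and 2 lower in H1650. At edgeR adjusted p under 0.05, 16.4% of all genes were higher and 15.9% lower in A549, and 31% and 31.3% in H1650. Of the other marker lists, 2 of 6 fibroblast genes (8.42 to 22.8 CPM summed) and 1 of 6 leukocyte genes (CD14, 0.228 to 6.41 CPM) had rows, and the 4 endothelial genes were not analysed here. The part of these differences in the results was not tested.

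In A549 cells over-expressing SRSF2, 9 TRIM genes were called higher and 8 lower than in untreated A549 cells. TRIM25, the ligase that modifies RIG-I, rose by 0.67 on the log2 scale. TRIM14, an adaptor at mitochondria, and TRIM21, a cytosolic antibody receptor, rose by 0.61 and 0.57. The most abundant member, the co-repressor TRIM28, fell by 0.15. In H1650 cells the largest rises among members above 1 CPM were those of TRIM69 (log2 fold change 1.42), which restricts certain RNA viruses, and TRIM26 (1.36), a PRY-SPRY ligase with roles in virus infection. The largest fall there was that of TRIM16 (-1.03), which takes part in the autophagy of damaged membranes.

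A gene was called where the edgeR quasi-likelihood test gave a Benjamini-Hochberg adjusted p under 0.05 over the 15991 genes tested. By this rule 17 of 45 TRIM genes changed in A549 (37.8%), against 32.3% of all genes tested. Of these, 9 were higher (20%, against 16.4% of all genes) and 8 were lower (17.8%, against 15.9%). On deposited FPKM with a pseudocount of 1, limma called 11 higher and 5 lower in A549, and without untreated A549 replicate 2 the edgeR counts were 9 and 5. In H1650, 32 of 45 changed (71.1%), against 62.3% of all genes, with 16 higher and 16 lower (35.6% each, against 31% and 31.3%). In H1650, 5 members passed the test with a fold of 2 or more, TRIM69, TRIM26, TRIM67 and TRIM59 upwards and TRIM16 downwards, which is 11.1% against 10.6% of all genes. SRSF2 and untreated libraries did not overlap for 23 members in A549, against 45.6% of all genes, and for 33 in H1650, against 64.7%. The family's shares thus lay within 10 percentage points of those of all genes, and the median absolute log2 fold change was 0.18 over the family and 0.16 over all genes in A549, and 0.40 and 0.36 in H1650. In these bulk libraries fewer cells with a transcript and less RNA per cell cannot be told apart.

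**Figure D1:**
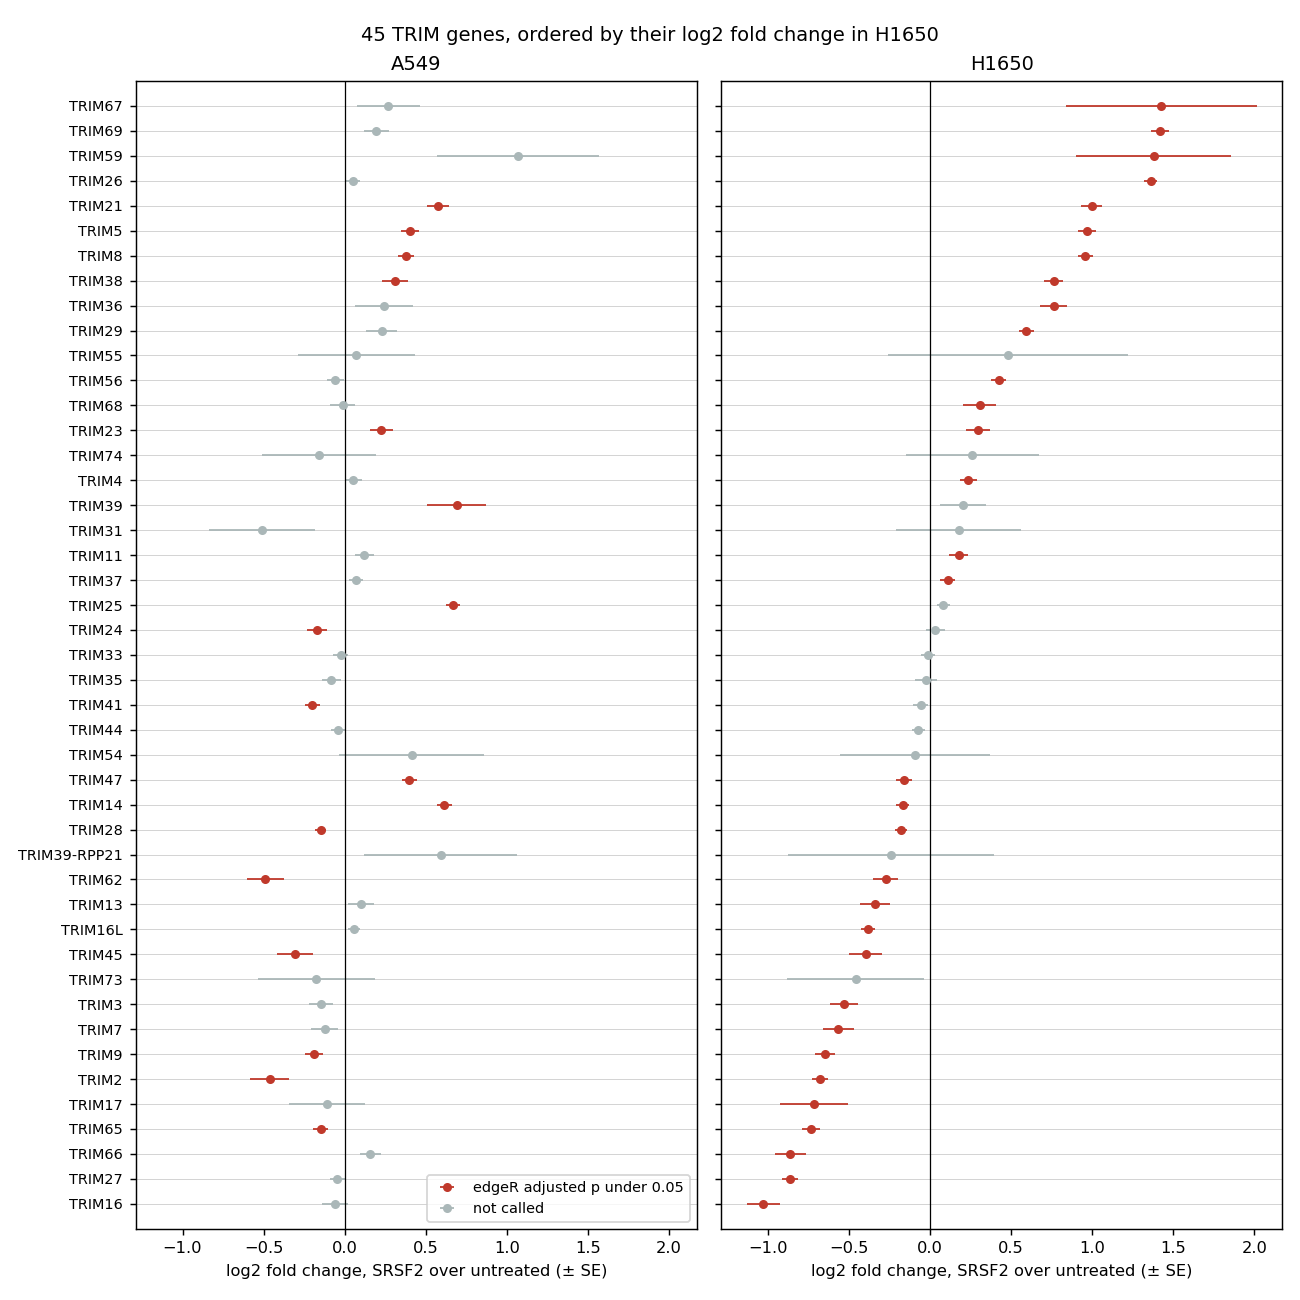
Log2 fold change (x axis, SRSF2 over untreated, ± SE) of the 45 TRIM genes (y axis) in A549 on the left and H1650 on the right, ordered by the H1650 value. Red points passed the edgeR test (17 in A549, 32 in H1650). The wide bars belong to members under 1 CPM, such as TRIM59 in both lines and TRIM67 in H1650.

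Across the lines, 13 members changed in both (28.9%, against 24.1% of all genes tested) and 4 passed in A549 and not in H1650 (TRIM24, TRIM25, TRIM39 and TRIM41; 8.89%, against 8.19%). In H1650 and not in A549, 19 passed (42.2%, against 38.2%), and 9 passed in neither (20%, against 29.5%). Of the 4, the effects differed between the lines by the test for TRIM24 and TRIM25, while TRIM39 and TRIM41 missed it (edgeR adjusted p = 0.0802 and 0.0717). The 5 members TRIM5, TRIM8, TRIM21, TRIM23 and TRIM38 were higher in both lines, as were 9.44% of all genes. The 6 members TRIM2, TRIM9, TRIM28, TRIM45, TRIM62 and TRIM65 were lower in both, as were 8.69% of all genes. TRIM14 and TRIM47 were higher in A549 and lower in H1650, as were 3.13% of all genes. The 9 members that passed in neither line were TRIM31, TRIM33, TRIM35, TRIM39-RPP21, TRIM44, TRIM54, TRIM55, TRIM73 and TRIM74, and 6 of these (all but TRIM33, TRIM35 and TRIM44) averaged under 1 CPM in every group.

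Interferon-inducible members made up 5 of the 9 rises in A549 and 6 of the 16 in H1650. Of 10 such genes listed, 8 had rows, and TRIM22 and TRIM34 were not analysed here. In A549, 5 of the 8 rose (TRIM5, TRIM14, TRIM21, TRIM25 and TRIM38; 62.5%, against 16.4% of all genes), with a median log2 fold change of 0.36 over the 8, against 0.0021 over all genes tested. In H1650, 6 of the 8 rose (TRIM5, TRIM21, TRIM26, TRIM38, TRIM56 and TRIM69; 75%, against 31% of all genes) and TRIM14 fell, with a median of 0.86, against 0 over all genes. The list comes from general knowledge of the family and was drawn up with earlier results of these data known, so its direction is not independent evidence.

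TRIM25 (chr17:56836387-56914080, minus strand; ENSG00000121060) adds ubiquitin chains to RIG-I and binds RNA itself. It had 137, 135 and 134 CPM in SRSF2 A549 libraries, against 82.1, 86.8 and 86.3 CPM in untreated A549 libraries. Every SRSF2 library exceeded every untreated one, and the log2 fold change was 0.67 ± 0.042 (SE; edgeR adjusted p = 1.22e-14). In H1650, where the untreated level was already higher than either A549 group, it had 206, 186 and 191 CPM in SRSF2 H1650 libraries, against 183, 183 and 186 CPM in untreated H1650 libraries. The H1650 groups did not overlap but lay close, with a log2 fold change of 0.082 ± 0.040 that missed the threshold (edgeR adjusted p = 0.0704) and passed it without SRSF2 replicate 2 (log2 fold change 0.11, edgeR adjusted p = 0.0246).

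TRIM14 (chr9:98069275-98119212, minus strand; ENSG00000106785) lacks a RING finger and serves as an adaptor in signalling from the mitochondrial protein MAVS. It had 62.7, 57.6 and 61.8 CPM in SRSF2 A549 libraries, against 40.4, 38.8 and 39.7 CPM in untreated A549 libraries. All SRSF2 libraries were above all untreated ones, with a log2 fold change of 0.61 ± 0.047 (edgeR adjusted p = 2.05e-12). The order was the opposite in H1650, with 139, 134 and 136 CPM in SRSF2 H1650 libraries, against 151, 149.6 and 158 CPM in untreated H1650 libraries. There the SRSF2 libraries were the lower ones without overlap, by -0.17 ± 0.041 (edgeR adjusted p = 0.000543).

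TRIM21 (chr11:4384897-4393696, minus strand; ENSG00000132109) binds antibody that has entered the cytosol with a pathogen. It had 25.9, 24.9 and 26.5 CPM in SRSF2 A549 libraries, against 17.2, 17.2 and 17.4 CPM in untreated A549 libraries. In H1650 it had 29.1, 31.6 and 32.8 CPM in SRSF2 H1650 libraries, against 16.2, 14.6 and 16.2 CPM in untreated H1650 libraries. Neither pair of groups overlapped, and the log2 fold changes were 0.57 ± 0.068 in A549 (edgeR adjusted p = 3.03e-08) and 1.00 ± 0.067 in H1650 (edgeR adjusted p = 5.48e-15).

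TRIM5 (chr11:5663557-5938619, minus strand; ENSG00000132256) recognises the capsid of incoming retroviruses. It had 38.9, 37.5 and 36.6 CPM in SRSF2 A549 libraries, against 27.2, 28.6 and 29.5 CPM in untreated A549 libraries, and 58.6, 60.4 and 63.8 CPM in SRSF2 H1650 libraries, against 31.6, 29.6 and 32.4 CPM in untreated H1650 libraries. The rise was present in every SRSF2 library of both lines, with log2 fold changes of 0.40 ± 0.057 in A549 (edgeR adjusted p = 8.63e-07) and 0.97 ± 0.054 in H1650 (edgeR adjusted p = 3.67e-17). TRIM38 (chr6:25962802-25991226, plus strand), which limits signalling through TAB2, had 11.5, 12.6 and 12.3 CPM in SRSF2 A549 libraries, against 9.56, 9.75 and 10.02 CPM in untreated A549 libraries, and 52.3, 53.4 and 57.2 CPM in SRSF2 H1650 libraries, against 33.5, 32.5 and 30.1 CPM in untreated H1650 libraries. Its groups were also separate in both lines, with log2 fold changes of 0.31 ± 0.080 (edgeR adjusted p = 0.00251) and 0.76 ± 0.058 (edgeR adjusted p = 1.18e-13).

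TRIM26 (chr6:30184455-30213427, minus strand; ENSG00000234127) lies in the class I region of the major histocompatibility complex. It had 321, 306 and 295 CPM in SRSF2 H1650 libraries, against 123, 117 and 119 CPM in untreated H1650 libraries. Every SRSF2 H1650 library was more than 2-fold above every untreated one, and the log2 fold change was 1.36 ± 0.040 (edgeR adjusted p = 7.8e-25). The A549 values were 63.1, 66.9 and 67.4 CPM in SRSF2 A549 libraries, against 62.1, 63.5 and 65.04 CPM in untreated A549 libraries, which overlapped, and the log2 fold change there was 0.051 ± 0.045 (edgeR adjusted p = 0.416).

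TRIM69 (chr15:44728988-44767829, plus strand; ENSG00000185880) is a microtubule-bound member. It had 64.3, 69.01 and 66.02 CPM in SRSF2 H1650 libraries, against 24.8, 24.7 and 25.1 CPM in untreated H1650 libraries. All 3 SRSF2 libraries were above all 3 untreated ones by more than 2-fold, and the log2 fold change was 1.42 ± 0.055 (edgeR adjusted p = 1.83e-21). In A549 the values were 9.85, 9.77 and 10.6 CPM in SRSF2 A549 libraries, against 8.55, 8.76 and 9.03 CPM in untreated A549 libraries, separate but close, with a log2 fold change of 0.20 ± 0.079 that missed the threshold (edgeR adjusted p = 0.0565). TRIM56 (chr7:101085439-101097967, plus strand), a ligase without a PRY-SPRY domain that acts against RNA viruses, had 92.1, 80.5 and 90.2 CPM in SRSF2 H1650 libraries, against 65.6, 63.6 and 66.8 CPM in untreated H1650 libraries, and its groups were separate (log2 fold change 0.42 ± 0.048, edgeR adjusted p = 2.45e-09). Its A549 values of 50.6, 49.6 and 50.7 CPM in SRSF2 A549 libraries, against 50.1, 53.5 and 53.5 CPM in untreated A549 libraries overlapped (log2 fold change -0.058, edgeR adjusted p = 0.429).

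**Figure D2:**
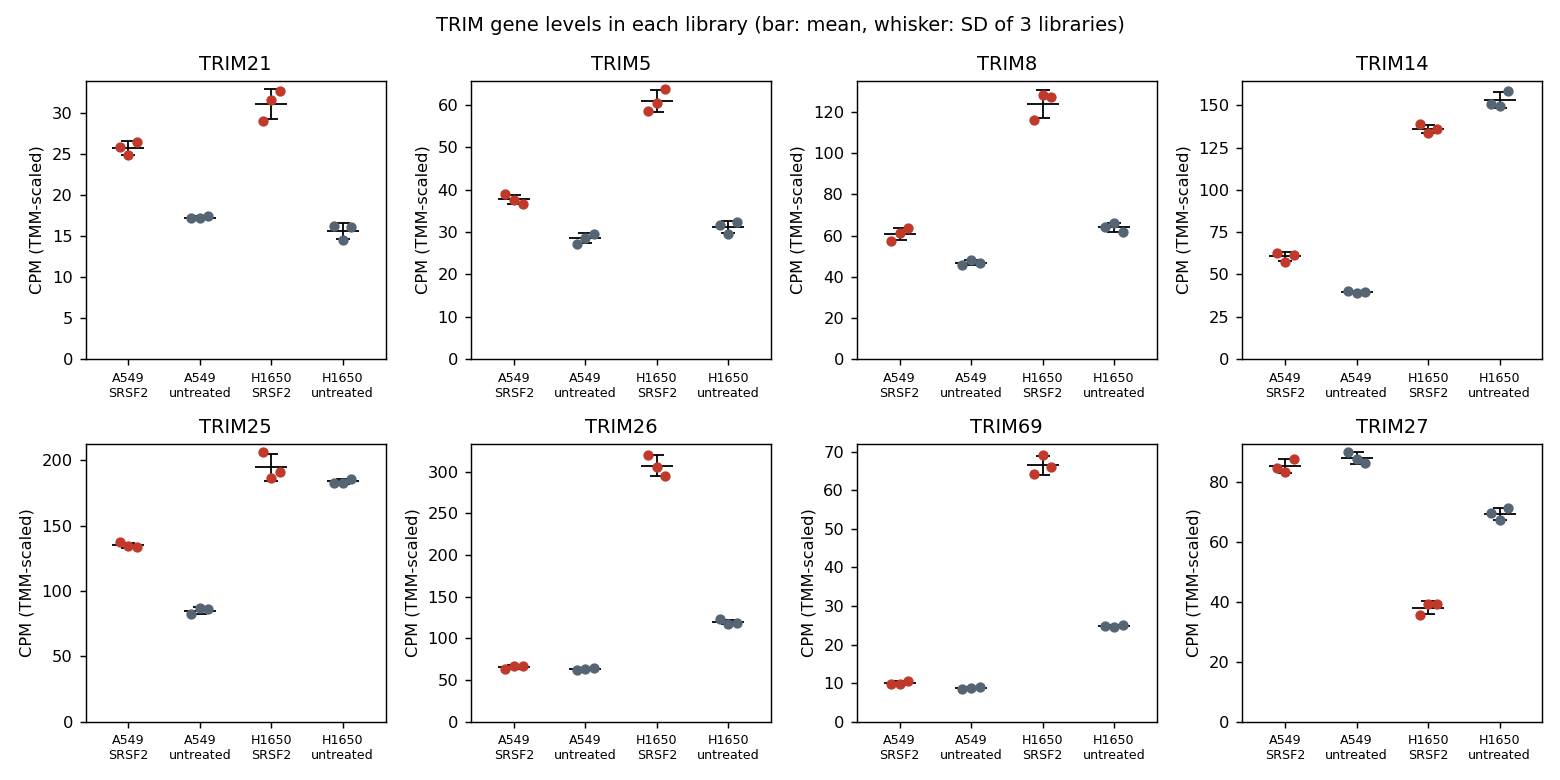
Level of 8 TRIM genes (y axis, CPM after TMM scaling, from 0) in each of the 12 libraries (x axis, by line and treatment). Red points are SRSF2 libraries and grey points untreated ones, the bar is the mean and the whisker the SD of 3 libraries. TRIM21, TRIM5 and TRIM8 were higher with SRSF2 in both lines, TRIM14 moved in opposite directions, TRIM25 rose in A549, and TRIM26, TRIM69 and TRIM27 changed in H1650.

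Since these genes are known targets of interferon, their promoters were searched for the letters GAAANNGAAA on either strand (TTTCNNTTTC read on the other strand), the core of the interferon-stimulated response element that STAT and IRF proteins bind. The window ran from 250 bases before to 50 after each start in the RefSeq promoter table (GRCh38.p14), and 33 TRIM genes had at least 1 window, while 12 had none. The pattern was present for 8 of the 33 genes (24.24%), against 421 of 11242 tested genes with a window (3.74%). Counted per promoter, 8 of 47 TRIM windows held it (17.02%), against 450 of 16360 windows of genes tested (2.75%) and 1255 of all 35116 (3.57%). It was present for 5 of the 8 interferon-inducible members (62.5%) and for 3 of the other 25 (12%), which were TRIM2, TRIM16 and TRIM44. The list was drawn up from what is known of interferon induction, so its larger share is not independent evidence. TRIM2 had further windows, all without a match. For TRIM44 and the TRIM2 window with the match, a stretch after the start was found in no GENCODE 29 transcript of the gene. The stretches around the pattern are shown for the 5 interferon-inducible members, because these promoters belong to the genes described above. TRIM44, whose RNA did not pass the test in either line, is shown as well. Each reads 5′ to 3′ on the gene's own strand, with the pattern in capitals; in TRIM21 and TRIM26 a pair of matches overlaps.
TRIM14 chr9:98119223-98119288, minus strand: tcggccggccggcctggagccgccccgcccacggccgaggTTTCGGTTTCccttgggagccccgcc
TRIM21 chr11:4393663-4393692, minus strand: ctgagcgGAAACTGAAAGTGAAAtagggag
TRIM5 chr11:5685075-5685141, minus strand: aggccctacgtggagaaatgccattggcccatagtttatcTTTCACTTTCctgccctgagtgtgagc
TRIM26 chr6:30213545-30213640, minus strand: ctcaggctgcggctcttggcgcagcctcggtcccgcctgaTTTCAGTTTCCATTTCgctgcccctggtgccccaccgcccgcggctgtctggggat
TRIM69 chr15:44736426-44736515, plus strand: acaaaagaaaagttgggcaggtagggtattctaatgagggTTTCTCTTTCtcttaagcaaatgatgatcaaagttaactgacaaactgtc
TRIM44 chr11:35662700-35662774, plus strand: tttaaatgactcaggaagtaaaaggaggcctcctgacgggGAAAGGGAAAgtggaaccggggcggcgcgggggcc

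The TRIM21 stretch lies 11 to 40 bases after the start, and the others lie before it. Members with the pattern moved in both directions. Of the 8 genes with it, 3 rose, 1 fell and 4 did not pass in A549, and 4 rose, 3 fell and 1 did not pass in H1650. TRIM14 carried the pattern and fell in H1650, TRIM16 and TRIM2 carried it and fell in H1650 as well, and TRIM25 and TRIM38 rose without a match in their windows. Of the 25 genes with a window and no match, 5 rose and 4 fell in A549, and 8 rose and 8 fell in H1650. Among all genes tested, 16.4% rose and 15.9% fell in A549, and 31% rose and 31.3% fell in H1650. A match is a description of letters, and the absence of a match says only that these letters are not in the window.

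Beyond the interferon-inducible list, TRIM8 and TRIM29 of the class without a C-terminal domain rose, TRIM29 in H1650 only. TRIM8 (chr10:102642310-102660680, plus strand; ENSG00000171206), a ligase that promotes NF-kB signalling, had 57.4, 61.4 and 63.5 CPM in SRSF2 A549 libraries, against 45.5, 48.1 and 46.8 CPM in untreated A549 libraries, and 116, 128 and 128 CPM in SRSF2 H1650 libraries, against 64.1, 66.1 and 61.7 CPM in untreated H1650 libraries. Its SRSF2 libraries were above its untreated ones in both lines, with log2 fold changes of 0.38 ± 0.051 (edgeR adjusted p = 4.21e-07) and 0.96 ± 0.048 (edgeR adjusted p = 1.6e-18). The divergent transcript TRIM8-DT overlaps 14.1% of the exon length of TRIM8, and whether counting used strand is not stated. TRIM29, an epithelial member without a RING finger, had 122, 121 and 118 CPM in SRSF2 H1650 libraries, against 81.5, 78.4 and 79.8 CPM in untreated H1650 libraries. These groups did not overlap, and it rose by 0.59 (edgeR adjusted p = 2.18e-13). In A549 it averaged 6.03 CPM in SRSF2 A549 and 5.18 CPM in untreated A549 cells, with a log2 fold change of 0.23 that missed the threshold (edgeR adjusted p = 0.068) and passed it without SRSF2 replicate 1 (0.31, edgeR adjusted p = 0.0217). TRIM56, described above, belongs to this class as well as to the interferon-inducible list. In A549, 1 of the 7 members of this class rose (TRIM8, 14.3%, against 16.4% of all genes). In H1650, 3 rose (TRIM8, TRIM29 and TRIM56, 42.9%, against 31%). The other 4, TRIM31, TRIM44, TRIM73 and TRIM74, passed in neither line. TRIM44 was called lower in H1650 without SRSF2 replicate 1 (log2 fold change -0.12, edgeR adjusted p = 0.00777).

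The PHD and bromodomain class acts on chromatin, and its 4 members have rows. TRIM28 (chr19:58544091-58550722, plus strand; ENSG00000130726), the co-repressor that KRAB zinc finger proteins recruit, had 774, 784 and 767 CPM in SRSF2 A549 libraries, against 887, 847 and 843 CPM in untreated A549 libraries, and 581, 611 and 572 CPM in SRSF2 H1650 libraries, against 648, 654 and 696 CPM in untreated H1650 libraries. It was lower in every SRSF2 library of both lines, by a small amount, with log2 fold changes of -0.15 ± 0.035 (edgeR adjusted p = 0.00118) and -0.18 ± 0.035 (edgeR adjusted p = 3.99e-05). TRIM66, a member that binds heterochromatin protein 1, had 5.50, 4.55 and 5.41 CPM in SRSF2 H1650 libraries, against 10.2, 9.005 and 8.90 CPM in untreated H1650 libraries. These groups were separate, at a log2 fold change of -0.86 ± 0.10 (edgeR adjusted p = 1.1e-09). Its A549 values of 31.8, 30.4 and 31.2 CPM in SRSF2 A549 libraries, against 28.3, 27.8 and 27.5 CPM in untreated A549 libraries pointed upwards without passing (log2 fold change 0.16 ± 0.066, edgeR adjusted p = 0.0643, or 0.0213 with the A549 groups alone in the fit). TRIM24, a co-regulator of nuclear receptors, was lower in A549 (-0.17, edgeR adjusted p = 0.0327) and at 0.034 in H1650, while TRIM33, a partner of SMAD proteins, was at -0.024 and -0.013 and passed in neither.

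The class with NHL repeats was represented by TRIM2 and TRIM3, both best known from neurons. TRIM2 (chr4:153152342-153339320, plus strand; ENSG00000109654), which ubiquitinates the neurofilament light chain, had 51.9, 53.2 and 57.1 CPM in SRSF2 H1650 libraries, against 87.3, 87.6 and 85.2 CPM in untreated H1650 libraries. It was lower in all SRSF2 H1650 libraries, by -0.68 ± 0.049 (edgeR adjusted p = 4.12e-14). In A549 its level was far lower, with 2.98, 2.68 and 2.47 CPM in SRSF2 A549 libraries, against 3.70, 3.71 and 3.78 CPM in untreated A549 libraries, again separate (log2 fold change -0.46 ± 0.12, edgeR adjusted p = 0.00329). That A549 call did not hold on deposited FPKM values, where limma gave adjusted p = 0.542 with a pseudocount of 1 and 0.153 with 0.1. TRIM3 was at -0.15 in A549 (edgeR adjusted p = 0.128, 0.047 without untreated replicate 3) and fell in H1650 (-0.53, edgeR adjusted p = 2.86e-06).

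Members with a COS box bind microtubules. TRIM9, a brain-enriched ligase, fell in both lines, with log2 fold changes of -0.19 ± 0.056 in A549 (edgeR adjusted p = 0.00902) and -0.65 ± 0.062 in H1650 (edgeR adjusted p = 3.77e-11). TRIM36, a ligase that associates with microtubules, had 29.4, 25.9 and 24.6 CPM in SRSF2 H1650 libraries, against 15.7, 15.7 and 15.6 CPM in untreated H1650 libraries. It rose there by 0.76 ± 0.082 without overlap (edgeR adjusted p = 6.76e-10), while in A549 it averaged 2.05 CPM in SRSF2 A549 and 1.73 CPM in untreated A549 cells and did not pass (edgeR adjusted p = 0.319). TRIM67, a brain-enriched relative of TRIM9, rested on few reads in H1650, with 11, 5 and 4 counts in SRSF2 libraries against 3, 3 and 2 counts in untreated ones. Its call there (log2 fold change 1.43 ± 0.59, edgeR adjusted p = 0.0356) did not hold without SRSF2 replicate 1 (0.80, edgeR adjusted p = 0.326), nor without untreated replicate 1, 2 or 3 (edgeR adjusted p = 0.0618, 0.0566 and 0.098). The muscle members TRIM54 and TRIM55 stayed under 1 CPM in every group and passed in neither line.

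The PRY-SPRY class is the largest, with 21 members. In A549, 7 rose and 3 fell (33.3% and 14.3%, against 16.4% and 15.9% of all genes). In H1650, 8 rose and 9 fell (38.1% and 42.9%, against 31% and 31.3%). Most of these risers are also on the interferon-inducible list. The risers outside that list were TRIM39 and TRIM47 in A549, and TRIM4, TRIM11 and TRIM68 in H1650. TRIM27 (chr6:28903002-28923989, minus strand), a ligase that works with MAGE proteins in endosomal sorting, had 35.6, 39.5 and 39.3 CPM in SRSF2 H1650 libraries, against 69.8, 67.3 and 71.3 CPM in untreated H1650 libraries. Its SRSF2 H1650 libraries were all lower, at a log2 fold change of -0.86 ± 0.049 (edgeR adjusted p = 5.73e-17), and in A549 the groups overlapped around 85.4 CPM in SRSF2 A549 and 88.1 CPM in untreated A549 cells. TRIM16 (chr17:15627960-15684311, minus strand) had 4.06, 4.14 and 4.50 CPM in SRSF2 H1650 libraries, against 8.35, 9.04 and 8.61 CPM in untreated H1650 libraries. All SRSF2 H1650 libraries were lower without overlap, at a log2 fold change of -1.03 ± 0.10 (edgeR adjusted p = 1.41e-10). Its A549 values of 16.4, 16.2 and 18.02 CPM in SRSF2 A549 libraries, against 16.6, 18.8 and 17.3 CPM in untreated A549 libraries overlapped. TRIM16 shares 23.5% of its exon length with an overlapping read-through gene and has a truncated relative, TRIM16L, so reads may be split between them. The log2 fold change of TRIM16L in H1650 was -0.38 ± 0.044 (edgeR adjusted p = 2.47e-09). Of the class members with smaller changes, TRIM4 (0.24), TRIM11 (0.18) and TRIM68 (0.31) rose in H1650, TRIM7 (-0.56) and TRIM17 (-0.71) fell there, and TRIM41 fell in A549 (-0.20, edgeR adjusted p = 0.000953). In A549, TRIM11 passed without SRSF2 replicate 1 (0.17, edgeR adjusted p = 0.0406).

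TRIM65 (chr17:75880335-75897003, minus strand), the ligase that activates the RNA sensor MDA5, had 25.02, 22.6 and 25.1 CPM in SRSF2 H1650 libraries, against 40.2, 40.4 and 40.5 CPM in untreated H1650 libraries. It was lower in all SRSF2 H1650 libraries (log2 fold change -0.73 ± 0.053, edgeR adjusted p = 3.81e-14) and less so in A549 (-0.15 ± 0.046, edgeR adjusted p = 0.013). TRIM47, a ligase whose exons overlap an antisense gene over 51.5% of their length, had 103, 107 and 108 CPM in SRSF2 A549 libraries, against 84.3, 77.9 and 79.6 CPM in untreated A549 libraries, and 68.2, 73.9 and 76.6 CPM in SRSF2 H1650 libraries, against 79.02, 81.1 and 84.5 CPM in untreated H1650 libraries. SRSF2 libraries were the higher ones in A549 (0.40 ± 0.046, edgeR adjusted p = 2.13e-08) and the lower ones in H1650 (-0.16 ± 0.047, edgeR adjusted p = 0.00354). TRIM39, which stabilises the apoptosis adaptor MOAP1, had the largest called rise in A549, with 3.76, 3.13 and 2.90 CPM in SRSF2 A549 libraries, against 2.02, 2.58 and 1.47 CPM in untreated A549 libraries. The groups were separate at a low level (log2 fold change 0.69 ± 0.18, edgeR adjusted p = 0.003), and 29.5% of its exon length is shared with TRIM39-RPP21, so reads of the pair cannot be told apart with certainty. TRIM62, a ligase studied in epithelial polarity, had 4.62, 4.76 and 4.63 CPM in SRSF2 A549 libraries, against 5.93, 6.93 and 6.85 CPM in untreated A549 libraries, all lower with SRSF2 (log2 fold change -0.49 ± 0.11, edgeR adjusted p = 0.000903). On deposited FPKM with a pseudocount of 1 that call was lost (limma adjusted p = 0.0656).

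Among the remaining classes, TRIM23, which carries an ARF GTPase domain, rose in both lines (0.23 in A549 and 0.30 in H1650), and TRIM45 fell in both (-0.31 and -0.40). TRIM37, a ligase of peroxisomes and centrosomes, rose in H1650 (0.11, edgeR adjusted p = 0.0369). Of the membrane-anchored members, TRIM13 fell in H1650 (-0.34, edgeR adjusted p = 0.00181), and TRIM59 rose there (1.38, edgeR adjusted p = 0.0126) on 18, 11 and 9 counts in SRSF2 libraries against 6, 4 and 6 counts in untreated ones. TRIM59 shares 14.5% of its exon length with a protein-coding gene on the same strand and 19.8% with SMC4 on the opposite strand.

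Several calls near the threshold were lost when 1 library was left out, while the fold change kept its sign. In A549, the TRIM24 call was lost without SRSF2 replicate 2 or 3 or untreated replicate 2 or 3 (edgeR adjusted p = 0.17, 0.0859, 0.0818 and 0.137), at log2 fold changes of -0.17 to -0.13 in those fits. That of TRIM45 was lost without SRSF2 replicate 1 or untreated replicate 2 or 3 (edgeR adjusted p = 0.186, 0.142 and 0.073), at -0.30 to -0.22. TRIM9 lost its call without SRSF2 replicate 1 or untreated replicate 2 (0.0616 and 0.0593), TRIM23 without SRSF2 replicate 2 or untreated replicate 1 (0.0574 and 0.0725), and TRIM65 without SRSF2 replicate 2 or untreated replicate 3 (0.0869 and 0.0531). In these fits the log2 fold change of TRIM9 was -0.16, that of TRIM23 0.20 to 0.21 and that of TRIM65 -0.14 to -0.12. In H1650, TRIM37 lost its call without SRSF2 replicate 1 or 3, untreated replicate 1 or 3 or untreated A549 replicate 2 (edgeR adjusted p from 0.0576 to 0.127), at 0.086 to 0.108. The other losses there were those of TRIM59 without SRSF2 replicate 1 or untreated replicate 2 (0.131 and 0.0514), TRIM11 without SRSF2 replicate 2 or untreated replicate 2 (0.0881 and 0.0773), TRIM17 without untreated replicate 1 (0.062) and TRIM68 without untreated replicate 3 (0.0523). The log2 fold changes in these fits were 0.97 to 1.22 for TRIM59, 0.13 to 0.14 for TRIM11, -0.50 for TRIM17 and 0.25 for TRIM68.

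Whether the effect of SRSF2 differed between the lines was tested as the A549 log2 fold change minus that in H1650. TRIM26, TRIM69, TRIM8, TRIM5, TRIM38 and TRIM21 rose more in H1650, while TRIM25, TRIM14 and TRIM47 had the higher value in A549, and TRIM66, TRIM16, TRIM27 and TRIM65 fell in H1650 beyond their A549 value. The difference passed for 24 of 45 TRIM genes (53.3%), against 47.5% of all genes tested, with 12 higher in A549 (26.7%, against 24% of all genes) and 12 lower (26.7%, against 23.5%). With library totals in place of TMM factors the split was 13 and 8. TRIM26, TRIM69 and TRIM66 passed with a difference of at least 2-fold, against 9.26% of all genes. The largest differences were -1.31 ± 0.060 for TRIM26 (edgeR adjusted p = 1.09e-18), -1.22 ± 0.10 for TRIM69 (edgeR adjusted p = 1.3e-12), 1.02 ± 0.12 for TRIM66 (edgeR adjusted p = 5.27e-09), 0.97 ± 0.13 for TRIM16 (edgeR adjusted p = 1.54e-07) and 0.82 ± 0.067 for TRIM27 (edgeR adjusted p = 2.81e-12). All 8 interferon-inducible members passed. TRIM14 (0.78) and TRIM25 (0.59) were positive, and TRIM26, TRIM69, TRIM5, TRIM56, TRIM38 and TRIM21 were negative. The median of the 8 differences was -0.47, against 0.0063 over all genes.

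**Figure D3:**
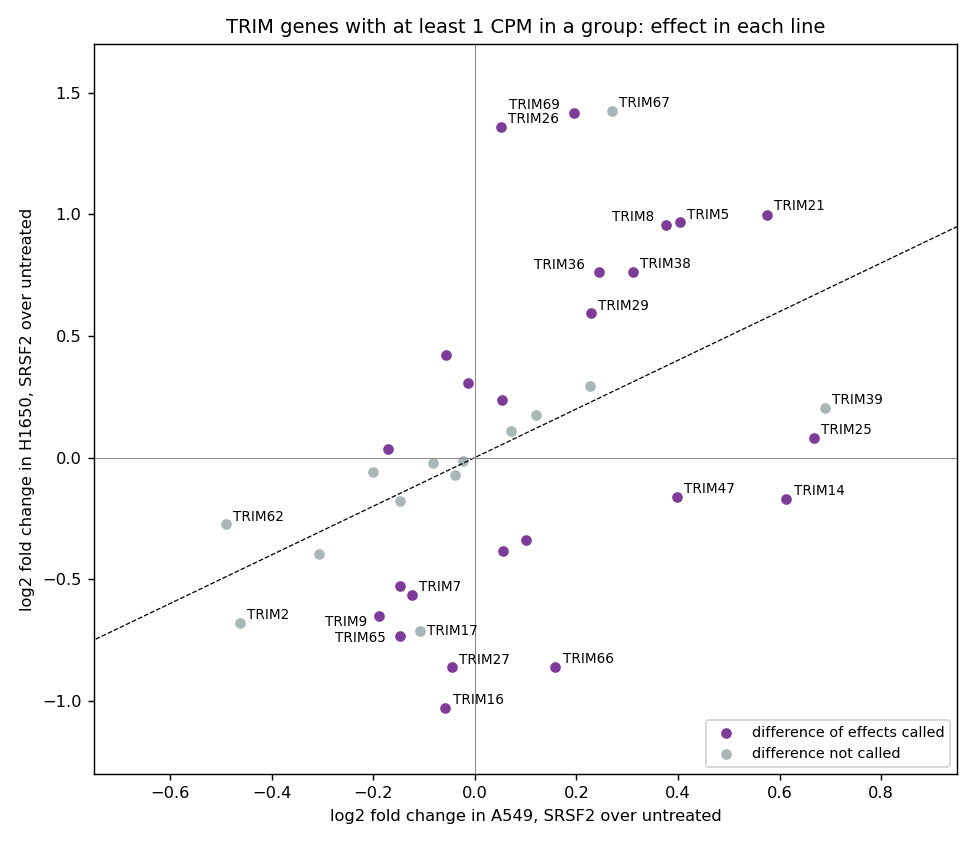
Log2 fold change in A549 (x axis) against that in H1650 (y axis), both SRSF2 over untreated, for the 38 TRIM genes with at least 1 CPM in a group. Purple points passed the test of the difference between the lines, and on the dashed line both effects would be equal. TRIM26 and TRIM69 stand far above that line, and TRIM14, TRIM25 and TRIM47 below it.

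Among the smaller differences, 4 members lost their call in several of the fits that left out 1 library, with the difference keeping its sign. TRIM24 (difference -0.20, edgeR adjusted p = 0.0467) lost its call without A549 SRSF2 replicate 2 or 3, A549 untreated replicate 2 or 3, H1650 SRSF2 replicate 1 or 2 or H1650 untreated replicate 1 or 3, with edgeR adjusted p from 0.0632 to 0.147 at differences of -0.21 to -0.16. TRIM4 (-0.18) lost it without A549 SRSF2 replicate 1 or 2, A549 untreated replicate 2 or 3, H1650 SRSF2 replicate 3 or H1650 untreated replicate 2 or 3 (0.0607 to 0.133), at -0.18 to -0.14. TRIM68 (-0.32) lost it without A549 SRSF2 replicate 1 or 3, A549 untreated replicate 2, H1650 SRSF2 replicate 1 or 2 or H1650 untreated replicate 1 or 3 (0.0509 to 0.111), at -0.33 to -0.27. The TRIM36 difference (-0.52) was lost without A549 SRSF2 replicate 2 or 3, any 1 of the 3 A549 untreated libraries or H1650 SRSF2 replicate 1 (0.0544 to 0.146), at -0.52 to -0.36. Gains in the same fits were TRIM39 without A549 untreated replicate 2 (edgeR adjusted p = 0.0169), TRIM41 without H1650 untreated replicate 1 (0.0323) and TRIM17 without A549 untreated replicate 3 or H1650 untreated replicate 2 (0.0495 and 0.0331).

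The last comparison set the untreated lines against each other. Untreated H1650 cells had the neuronal ligase TRIM2, the epithelial TRIM29 and the microtubule-bound TRIM36 at levels far above those of untreated A549 cells, and TRIM67 and TRIM16L far below. The difference between the untreated lines passed for 37 of 45 TRIM genes (82.2%), against 82.4% of all genes tested, with 18 higher in H1650 (40%, against 40.1%) and 19 lower (42.2%, against 42.3%). Of these, 17 differed by 2-fold or more (37.8%, against 39.4% of all genes). The 9 upward ones were TRIM2, TRIM14, TRIM25, TRIM29, TRIM36, TRIM38, TRIM39, TRIM62 and TRIM69, and the 8 downward ones TRIM16, TRIM16L, TRIM31, TRIM35, TRIM55, TRIM66, TRIM67 and TRIM68. Libraries of the untreated lines did not overlap for 37 members, against 84% of all genes.

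TRIM2 had 87.3, 87.6 and 85.2 CPM in untreated H1650 libraries, against 3.70, 3.71 and 3.78 CPM in untreated A549 libraries, a log2 difference of 4.54 ± 0.071 (edgeR adjusted p = 2.57e-34). TRIM29 had 81.5, 78.4 and 79.8 CPM in untreated H1650 libraries, against 5.44, 5.05 and 5.04 CPM in untreated A549 libraries, a log2 difference of 3.95 ± 0.066 (edgeR adjusted p = 2.17e-33). For both genes the lowest H1650 library was more than 10-fold above the highest A549 one. TRIM36 had 15.7, 15.7 and 15.6 CPM in untreated H1650 libraries, against 1.71, 1.73 and 1.74 CPM in untreated A549 libraries (log2 difference 3.18 ± 0.12, edgeR adjusted p = 1.43e-22). TRIM16L had 54.4, 54.5 and 58.5 CPM in untreated H1650 libraries, against 324, 329.8 and 341 CPM in untreated A549 libraries (log2 difference -2.57 ± 0.041, edgeR adjusted p = 3.68e-34). It was the second most abundant member per length in A549, and H1650 libraries all lay far lower. TRIM67, with 3, 3 and 2 counts in untreated H1650 libraries against 71, 82 and 72 counts in untreated A549 libraries, had the largest log2 difference (-4.83 ± 0.36, edgeR adjusted p = 2.33e-14). Of the 8 interferon-inducible members, 7 were higher in untreated H1650 cells, with a median log2 difference of 1.01, against -0.036 over all genes. The eighth, TRIM21, was at -0.14 (edgeR adjusted p = 0.0612), and TRIM5 passed narrowly (0.13, edgeR adjusted p = 0.0334). TRIM5 lost that call without untreated H1650 replicate 1 or 3 or untreated A549 replicate 1 (edgeR adjusted p = 0.0706, 0.106 and 0.129), and TRIM74 without untreated H1650 replicate 3 or untreated A549 replicate 2 (0.134 and 0.146). With DESeq2, TRIM21 was called lower in untreated H1650 cells (DESeq2 adjusted p = 0.0391) and TRIM5 was not called (0.105). Both changes also occurred with DESeq2 size factors in edgeR, with library totals and with limma on FPKM at either pseudocount.

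**Figure D4:**
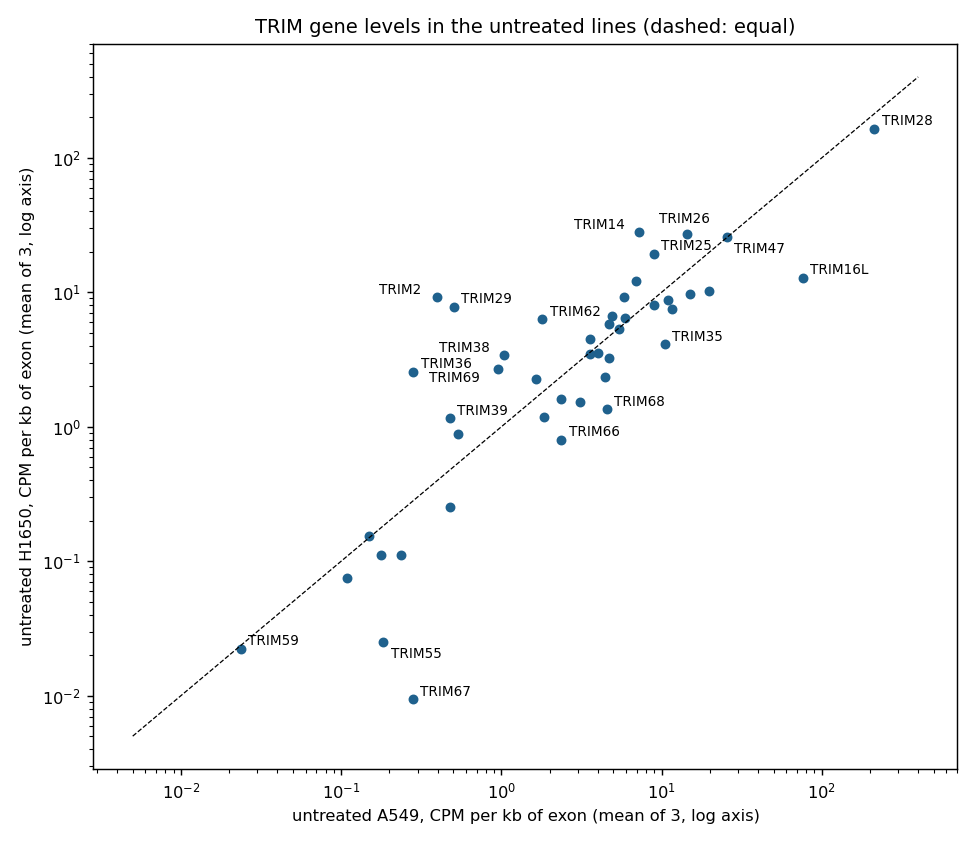
Level of each TRIM gene per kilobase of exon in untreated A549 (x axis) and untreated H1650 cells (y axis), as CPM per kb, mean of 3 libraries, on log axes. Genes above the dashed line were higher in H1650, such as TRIM2, TRIM29 and TRIM36, and genes below it were lower there, such as TRIM16L, TRIM55 and TRIM67. TRIM28 was the highest in both lines.

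Levels between genes were compared per kilobase of exon. TRIM28 stood first in every group, with 192 CPM per kb in SRSF2 A549, 213 in untreated A549, 146 in SRSF2 H1650 and 165 in untreated H1650 cells. TRIM16L came second in A549, with 79.6 CPM per kb in SRSF2 and 76.6 in untreated cells. In SRSF2 H1650 cells TRIM26 stood second, at 70.2 ± 2.92 CPM per kb, ahead of TRIM14 at 24.9 ± 0.474. In untreated H1650 cells TRIM14 (27.96 ± 0.868), TRIM26 (27.3 ± 0.673) and TRIM47 (26.0 ± 0.874) followed TRIM28, each ± SD of 3 libraries. TRIM14 and TRIM26 differed by less than 1 SD there. The median member was at 4.02 CPM per kb in SRSF2 A549, 3.57 in untreated A549, 4.60 in SRSF2 H1650 and 3.51 in untreated H1650 cells. Members averaging under 1 CPM numbered 7 in each A549 group and 8 in each H1650 group, the additional one being TRIM67. At that level 3 counts in a library correspond to about 0.0935 to 0.126 CPM, so these members were poorly resolved at this depth.

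The family has relatives without a TRIM symbol, of which 4 of 6 listed were tested. PML, the organiser of nuclear bodies, rose in both lines (0.54 ± 0.052 in A549, edgeR adjusted p = 5.09e-10, and 0.58 ± 0.040 in H1650, edgeR adjusted p = 1.13e-14). MID1, a microtubule-bound ligase, fell in both (-0.26 ± 0.037 and -0.97 ± 0.041, edgeR adjusted p = 9.73e-07 and 2.19e-20). TRIML2 rose in A549 (0.55) and fell in H1650 (-0.53), a difference of 1.08 (edgeR adjusted p = 1.59e-11), and MID2 rose in H1650 (0.30, edgeR adjusted p = 0.022) and was at 0.15 in A549.

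Of the sensing and signalling proteins that TRIM ligases modify, 16 of 18 listed were tested, and 8 rose and 1 fell in A549 (50% and 6.25%, against 16.4% and 15.9% of all genes) while 9 rose and 2 fell in H1650 (56.2% and 12.5%, against 31% and 31.3%). Their median log2 fold change was 0.18 in A549 and 0.24 in H1650, against 0.0021 and 0 over all genes. RIGI, the substrate of TRIM25, averaged 37.5 CPM in SRSF2 A549 and 9.38 CPM in untreated A549 cells, and 1182 CPM in SRSF2 H1650 and 254 CPM in untreated H1650 cells, with log2 fold changes of 2.00 ± 0.061 (edgeR adjusted p = 4.58e-23) and 2.22 ± 0.039 (edgeR adjusted p = 2.98e-31). IFIH1, which encodes MDA5, the substrate of TRIM65, rose by 2.12 in A549 (edgeR adjusted p = 2.07e-19) and 2.44 in H1650 (edgeR adjusted p = 1.05e-31). MAVS, their common adaptor, fell in both (-0.29 and -0.54, edgeR adjusted p = 5.33e-06 and 1.23e-11). TAB2 rose in both (0.31 and 0.83), and IRF7 rose in A549 (2.14) and fell in H1650 (-1.05, at 0.524 CPM in SRSF2 H1650 and 1.10 CPM in untreated H1650 cells). The largest H1650 change on this list was that of ZC3HAV1 (3.61, edgeR adjusted p = 2.5e-32), against 0.20 in A549 (edgeR adjusted p = 0.00703). STING1 rose by 0.66 in A549 (edgeR adjusted p = 0.0258) and 1.37 in H1650 (edgeR adjusted p = 9.49e-21).

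Ubiquitin-conjugating enzymes supply the ubiquitin that RING ligases transfer. Of 14 listed, 12 were tested, and 4 rose and 1 fell in A549 (33.3% and 8.33%, against 16.4% and 15.9% of all genes) while 8 rose and 2 fell in H1650 (66.7% and 16.7%, against 31% and 31.3%). The median log2 fold changes were 0.032 and 0.19, against 0.0021 and 0 over all genes. UBE2L6, which also serves the ubiquitin-like protein ISG15, rose by 0.22 in A549 (edgeR adjusted p = 0.00701) and 0.89 in H1650 (edgeR adjusted p = 1.15e-18), and UBE2D3 by 0.13 (edgeR adjusted p = 0.0073) and 0.71 (edgeR adjusted p = 3.6e-18). UBE2E3 fell in both (-0.13 and -0.33, edgeR adjusted p = 0.0391 and 1.98e-07). Of 9 listed genes of type I interferon signalling, 8 were tested. In A549, 7 rose (87.5%, against 16.4% of all genes), with a median of 0.32, and 3 rose and 2 fell in H1650 (37.5% and 25%, against 31% and 31.3%), with a median of 0.082. The transcription factor IRF1 rose by 0.35 and 1.65 (edgeR adjusted p = 1.65e-05 and 5.37e-24), while the receptor chains IFNAR1 and IFNAR2 rose in A549 (0.18 and 0.29) and fell in H1650 (-0.30 and -0.48).

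Of 12 chromatin partners of TRIM24, TRIM28 and TRIM33, 1 rose and 5 fell in A549 (8.33% and 41.7%, against 16.4% and 15.9% of all genes), and 4 rose and 7 fell in H1650 (33.3% and 58.3%, against 31% and 31.3%). The median log2 fold changes were -0.079 in A549 and -0.19 in H1650, against 0.0021 and 0 over all genes. CBX5, a heterochromatin protein that TRIM28 binds, averaged 205 CPM in SRSF2 A549 and 257 CPM in untreated A549 cells, and 61.4 CPM in SRSF2 H1650 and 121 CPM in untreated H1650 cells, falls of -0.33 (edgeR adjusted p = 2.7e-08) and -0.98 (edgeR adjusted p = 3.88e-20) on the log2 scale. CHD3, a nucleosome remodeller that TRIM28 recruits, fell in both lines (-0.12 and -0.76, edgeR adjusted p = 0.0104 and 8.24e-19), as did HDAC1 (-0.16 and -0.53) and CHD4 (-0.15 and -0.22). CBX1 fell in A549 (-0.18) and rose in H1650 (0.66), and the difference between the lines passed (edgeR adjusted p = 6.57e-15).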

How the data were processed

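The authors deposited raw counts per gene. The submitters' processing notes name GRCh38 as the build and, as tools, featureCounts 2.0.0, STAR 2.7.7a and fastp 0.20.1. The deposited FPKM values were used in alternatives only. The annotation release, strand use and the rule for keeping genes are not given in the sources used here. A table of gene names gave the symbols of 16076 IDs and GENCODE 29 those of another 63, which left 460 IDs without a symbol. Coordinates and exon lengths are those of GENCODE 29 on GRCh38, and promoter sequences those of RefSeq on GRCh38.p14. A protein sequence comparison of the members was not run.

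The counts went into edgeR 4.0.16 (R 4.3.3), where filterByExpr kept 15991 genes, library sizes were TMM-scaled and 1 quasi-likelihood model with 4 group means was fitted to the 12 libraries, leaving 8 residual degrees of freedom. From it came the SRSF2 effect in each line, the A549 effect minus the H1650 effect, and the untreated H1650 over untreated A549 contrast. Benjamini-Hochberg adjustment ran over all genes tested, and fold changes are log2 with a standard error equal to their size over the root of the F statistic. The fit was tested on simulated data with known changes. Replicates differed beyond sampling noise in every pair (chi-square over its degrees of freedom, 2.29 to 8.11). Residuals of same-numbered libraries correlated at -0.0197 to 0.0237, so replicate numbers were not used as pairs.

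Values per library are given for the 8 members with the largest called changes in each line. They are given too for the 5 with the largest called differences between the untreated lines. These members had at least 1 CPM in the higher group and groups that did not overlap. The 5 with the largest called differences between effects needed at least 1 CPM in a group, with overlap allowed. The interferon-inducible list was included as well. TRIM28 and TRIM65 were added for their roles and TRIM59 for its low counts. The members and all gene lists were chosen with earlier results of these data known. Alternatives were DESeq2 1.42.0 and its size factors, library totals, no filter, limma 3.58.1 on log2 FPKM with pseudocounts of 1 and 0.1, a replicate block, only the groups compared, and leaving out each library. No column of the tables was left without a sample.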

Additional observations from a re-analysis of the deposited data

Results flagged for a closer look

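For 24 TRIM genes the effect of SRSF2 differed between the lines by the edgeR test of the difference (A549 log2 fold change minus that in H1650, adjusted p under 0.05), which is why they are listed. With 47.5% of all genes passing this test, a share of 53.3% is close to that of all genes. Members whose value was higher in A549 were TRIM66 (1.02), TRIM16 (0.97), TRIM27 (0.82), TRIM14 (0.78), TRIM65 (0.59), TRIM25 (0.59), TRIM47 (0.56), TRIM9 (0.46), TRIM7 (0.44), TRIM16L (0.44), TRIM13 (0.44) and TRIM3 (0.38). Members whose value was higher in H1650 were TRIM26 (-1.31), TRIM69 (-1.22), TRIM8 (-0.58), TRIM5 (-0.56), TRIM36 (-0.52), TRIM56 (-0.48), TRIM38 (-0.45), TRIM21 (-0.42), TRIM29 (-0.36), TRIM68 (-0.32), TRIM24 (-0.20) and TRIM4 (-0.18). TRIM14 and TRIM47 are the 2 members with opposite called directions in the lines.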

How the results depend on the processing

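The total counts of TRIM genes called stayed within 1.5 times in each alternative that was run. The split by direction moved more in A549, with 9 higher and 8 lower in the reported fit, 11 and 5 with log2(FPKM + 1), 11 and 6 with log2(FPKM + 0.1) or without SRSF2 A549 replicate 1, and 9 and 5 without untreated A549 replicate 2. In H1650 it was 16 and 16, and 12 and 18 with log2(FPKM + 1). For the difference it was 12 and 12, and 13 and 8 without untreated A549 replicate 2. No member value that was called in the reported fit or in the alternative reversed in direction. Changes of sign in values called in neither were not counted. With each library left out in turn the counts ran from 14 to 17 in A549, 29 to 32 in H1650, 21 to 24 for the difference and 35 to 37 between the untreated lines. DESeq2 called 17, 31, 24 and 37, and limma on log2 FPKM with a pseudocount of 1 called 16, 30, 21 and 38. Library totals in place of TMM factors moved the median of all genes in H1650 to -0.079 and gave 13 higher and 18 lower members there. Under them, TRIM37, TRIM11 and TRIM68 lost their H1650 calls (edgeR adjusted p = 0.604, 0.166 and 0.052) and TRIM41 and TRIM44 gained calls as lower; the cause was not tested. TRIM37 also lost its H1650 call with DESeq2, with DESeq2 size factors in edgeR, without the filter on low counts and with the replicate block. On FPKM that call was lost as well (limma adjusted p = 0.672 with a pseudocount of 1 and 0.624 with 0.1). TRIM69 passed in A549 on FPKM with a pseudocount of 0.1 (limma adjusted p = 0.0297). The replicate numbers share no stated source, and same-numbered libraries did not deviate together (correlations of -0.0197 to 0.0237). With the replicate block the counts were 17, 31, 24 and 34. In that fit the contrast of the untreated lines was taken at replicate 1 of each line. The count of 34 is therefore not a like comparison with the 37 of the reported fit. For the difference of effects a fit with only the groups compared could not be made, and the planned comparison of protein sequences was not run. Depth limits the members under 1 CPM most. The lowest totals over the 12 libraries were 92 counts for TRIM39-RPP21, 101 for TRIM59 and 112 for TRIM55.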

Other observations

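Some neighbouring members shared a direction and some did not. TRIM47 and TRIM65 lie 1759 bases apart on the minus strand of chromosome 17, and in A549 their log2 fold changes were 0.40 and -0.15, and in H1650 -0.16 and -0.73. TRIM11 and TRIM17, 1099 bases apart on the minus strand of chromosome 1, were at 0.18 and -0.71 in H1650. TRIM7 and TRIM41, 17.2 kb apart on chromosome 5, were at -0.12 and -0.20 in A549 and -0.56 and -0.058 in H1650, so both values were negative in each line, with TRIM41 called in A549 and TRIM7 in H1650. In the class I region of chromosome 6, TRIM31, TRIM26 and TRIM39 lie 71.3 and 113.1 kb apart, and in H1650 they were at 0.18, 1.36 and 0.20, with TRIM26 the one called there, while in A549 TRIM39 was the one called.

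Summed over the 45 members, TRIM RNA was 2494.0, 2521.0 and 2529.5 CPM in SRSF2 A549 libraries, against 2485.7, 2474.7 and 2471.8 CPM in untreated A549 libraries. In H1650 it was 2666.6, 2656.3 and 2621.4 CPM in SRSF2 libraries, against 2419.3, 2405.4 and 2464.9 CPM in untreated libraries. On this scale the SRSF2 libraries were the higher ones in each line without overlap, narrowly in A549. As shares of total counts, without TMM scaling, the A549 groups overlapped, at 0.2555%, 0.2582% and 0.26% in SRSF2 libraries against 0.2558%, 0.2554% and 0.2538% in untreated libraries, and the H1650 groups did not, at 0.2496% to 0.2517% against 0.242% to 0.2453%. TRIM28 made up 30.8% of the sum in SRSF2 A549 cells against 34.7% in untreated A549 cells, and 22.2% in SRSF2 H1650 cells against 27.4% in untreated H1650 cells. In SRSF2 H1650 cells TRIM26 averaged 307 CPM beside 588 CPM of TRIM28, against 119.7 beside 666 CPM in untreated H1650 cells.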
